A study of Mus musculus with 59 samples.

Results

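The 15 stroma-rich and 15 stroma-poor mouse mammary tumors were compared, 30 of the 59 tumors of the series. Each tumor received a score, the mean of log2(value + 1) over 4 genes of fibroblasts and their matrix, Dcn, Lum, Col1a1 and Col3a1, and the 59 tumors were ranked by it. The top 15 were called stroma-rich, the bottom 15 stroma-poor, and the other 29 belonged to neither group. The groups were thus selected on the measured levels of these 4 genes, which are described here with no test. Tumors came from B6.FVB-Tg(MMTV-PyVT)634Mul/LellJ mice that carry the PyMT transgene (+/-), in which the mouse mammary tumor virus promoter drives the polyoma middle T oncogene in mammary epithelium; all 3 treatment groups carry it. Treatment was vehicle (19 tumors), methylparaben (20) or propylparaben (20), esters of a hydroxybenzoic acid that serve as preservatives in cosmetics. The strain, the genotype and the treatment are what the labels give; age, dose and length of exposure are not stated there, nor whether each tumor came from a separate animal, so a p-value here reflects how much these samples vary, which may be technical. Total RNA of flash-frozen, pulverized tumor pieces was sequenced, so each value averages all cells of the piece.

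Stroma is the part of a tumor that is not carcinoma: fibroblasts, vessels, fat cells, immune cells and the matrix between them. Fibroblasts secrete most of the fibrillar collagen. Col1a1 and Col3a1 encode the chains of type I and type III collagen, and Dcn and Lum encode decorin and lumican, small leucine-rich proteoglycans that sit on collagen fibrils and set their spacing. In the mammary gland this tissue lies within a fat pad, so a piece of tumor can hold fat cells and fibroblasts side by side.

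The 4 genes did not overlap between the groups, which the ranking makes likely and which is no finding. Values are CPM, reads relative to library size and scaled between libraries. Dcn ran from 35.7 through a median of 114 to 287 CPM in stroma-poor tumors and from 362 through 517 to 668 in stroma-rich tumors. Lum ran from 6.16 through 14.9 to 28.7 CPM in stroma-poor and from 56.5 through 80.7 to 111 in stroma-rich tumors. Col1a1 ran from 104 through 261 to 391 CPM in stroma-poor and from 506 through 838 to 1412 in stroma-rich tumors. All 15 stroma-rich tumors lay above all stroma-poor tumors for each of these 3 genes. Col3a1 gave the same picture, from 55.5 through 164 to 261 CPM in stroma-poor and from 502 through 667 to 1049 in stroma-rich tumors. With treatment as a covariate the log2 differences were 1.59 for Dcn, 2.21 for Lum, 1.8 for Col1a1 and 1.99 for Col3a1.

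The score ran from 8.31 to 9.01 (median 8.62) in stroma-rich, from 7.27 to 8.18 in the 29 other tumors and from 5.14 to 7.21 (median 6.65) in stroma-poor tumors. Just inside the upper limit was propylparaben replicate 8 (8.31) and just outside it propylparaben replicate 17 (8.18); just inside the lower limit was methylparaben replicate 20 (7.21) and just outside it propylparaben replicate 15 (7.27). The limits thus part tumors whose scores lie close together. Ranking by Col3a1 alone picked the same 15 and 15 tumors, ranking by Lum alone shared 13 and 14 of them, by Dcn alone 11 and 10, and by Col1a1 alone 10 and 13. Ranked by Dcn and Lum, 12 of 15 stroma-rich and 11 of 15 stroma-poor tumors were the same as those ranked by Col1a1 and Col3a1, and 0 changed from one end to the other.

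**Figure D1:**
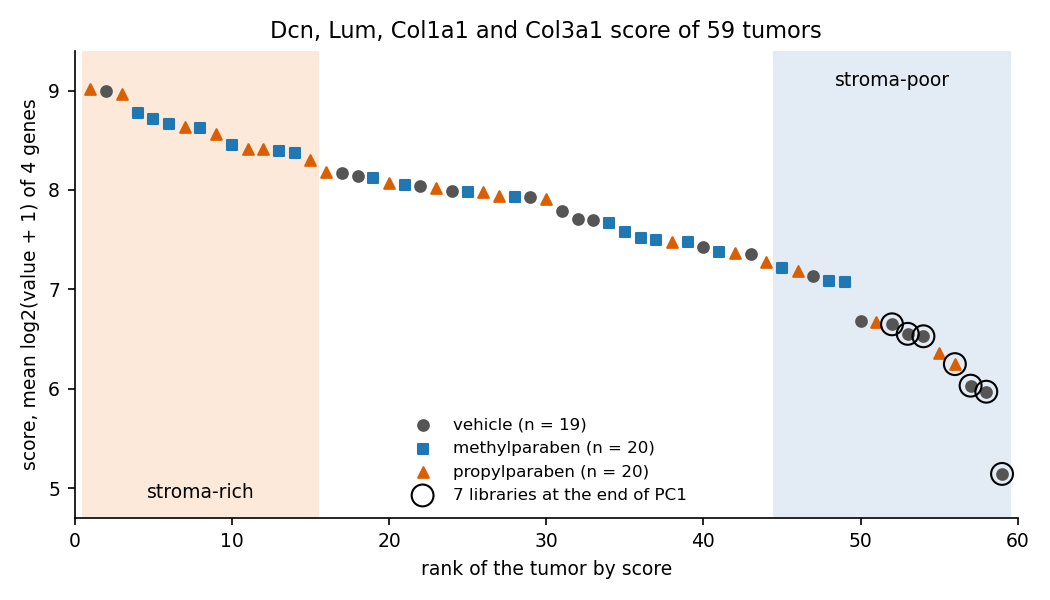
Score of each of the 59 tumors (vertical axis, mean log2(value + 1) of Dcn, Lum, Col1a1 and Col3a1) against its rank (horizontal axis), with symbols for the 3 treatments, shading for the 15 stroma-rich and 15 stroma-poor tumors, and rings around the 7 libraries at the end of the first principal component. Vehicle tumors fill much of the low end, and 1 of them, with a score of 8.99, is stroma-rich.

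The treatments were not spread evenly over the groups. Stroma-rich tumors were 1 vehicle, 7 methylparaben and 7 propylparaben tumors, and stroma-poor tumors were 8 vehicle, 3 methylparaben and 4 propylparaben tumors. The score was 7.26 ± 0.95 (SD, n = 19) in vehicle, 7.93 ± 0.57 (n = 20) in methylparaben and 7.85 ± 0.80 (n = 20) in propylparaben tumors. Treatment was therefore a covariate in the fits across genes between stroma-rich and stroma-poor tumors, save the alternatives given as having no covariate. It was not one in the comparison of library measures. The only stroma-rich vehicle tumor, vehicle replicate 5, is the only link between the groups within vehicle, and counts without it are given where they move by over 1.5 times.

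On the first principal component of genes with a mean of at least 1, the 7 libraries at 1 end were taken as a fixed number. That end was the one that went with a higher mean level of mitosis genes. The component held 19.1% of the variance, and all 7 were stroma-poor: vehicle replicates 7, 8, 10, 13, 14 and 19 and propylparaben replicate 1. Their log2 ratio of Col1a1 to Dcn ran from 1.14 to 1.99, against -0.40 through a median of 0.18 to 1.53 in the other 8 stroma-poor tumors. Reads on genes ran from 1166502 to 2032789 per library and did not differ between the groups (adjusted permutation p = 0.964, 2-sided, 100000 resamples, 9 measures). Reads aligned to several places were 13.8% ± 1.21 of reads in stroma-poor and 12.3% ± 0.53 in stroma-rich libraries (SD, n = 15 each; permutation test, adjusted p = 0.00027), and ambiguous reads 0.798% and 0.754% (adjusted permutation p = 0.00027). Mitochondrial reads were 4.03% ± 1.05 and 3.51% ± 0.22 of reads on genes (adjusted permutation p = 0.108). The part of these measures in the results below was not tested.

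Of 14483 genes tested apart from the 4 that chose the groups, 2481 differed between stroma-rich and stroma-poor tumors at a limma adjusted p under 0.05, or 17.1% of all. Higher in stroma-rich tumors were 1474 genes (10.2%) and lower were 1007 (6.95%). List counts from this comparison below are to be read beside these shares. Each call states that a gene goes with the level of the 4 genes in the same libraries. Without vehicle replicate 5 the counts were 943 and 382, with paraben tumors alone 1100 and 455, and without the 7 libraries 1217 and 655. Quantile normalization gave 1284 higher and 1394 lower genes, a split that leaned the other way. With the mean level of 13 adipocyte genes as a further covariate the counts were 49 and 22, and with that of 20 mitosis genes 376 and 77. In bulk tissue fewer cells of a type and less RNA per cell cannot be told apart, here and in every result below.

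Collagens other than the 2 that chose the groups were higher almost throughout. Of 14 fibrillar and associated collagen genes tested, 12 were called higher and 0 lower (9 without vehicle replicate 5), with a median log2 difference of 1.47 against 0.00 over all genes. These genes belong to the same cells and fibrils as the 4 that chose the groups, so the counts of the matrix and fibroblast lists describe the groups and are read no further. Col1a2, the partner chain of Col1a1 in type I collagen, ran from 148 through 384 to 608 CPM in stroma-poor and from 894 through 1443 to 2169 in stroma-rich tumors, a log2 difference of 1.8 ± 0.18 (SE, n = 15 and 15). Type VI collagen forms beaded filaments around cells, and its 3 chains moved alike: Col6a1 differed by 2.03, Col6a2 by 2.06 and Col6a3 by 1.98 on the log2 scale. Col11a1 and Col27a1, at 0.12 and -0.14, were the members that did not pass.

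Ranking by Col3a1 alone picked the same 15 and 15 tumors as the 4 genes together, so the 250 bases before its start are shown, as RefSeq places it on GRCm38.p6, plus strand, at chr1:45311288-45311537. Capitals mark TATAAA, the letters of the TATA box.
Col3a1: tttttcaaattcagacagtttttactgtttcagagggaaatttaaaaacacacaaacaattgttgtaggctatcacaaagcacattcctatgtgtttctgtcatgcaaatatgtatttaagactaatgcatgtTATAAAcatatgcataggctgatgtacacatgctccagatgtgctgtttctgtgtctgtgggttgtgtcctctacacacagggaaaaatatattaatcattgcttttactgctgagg
TATAAA occurs 1 time here, on either strand, 117 bases before the start. It occurs in 12.4% of the 32851 RefSeq promoter windows of the same length. Dcn, Lum and Col1a1 have no entry in the table of promoters used.

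Enzymes that finish, cross-link or cut collagen were raised less evenly. Of 21 genes for collagen processing, 11 were called higher (median 0.64), against 10.2% of all genes. Loxl1 and Lox, copper enzymes that cross-link collagen and elastin, differed by 1.64 ± 0.16 and 1.34 ± 0.17, and all 15 stroma-rich tumors lay above all stroma-poor tumors for both. Pcolce, which helps to remove the C-terminal propeptide of procollagen, differed by 1.17 ± 0.17, and Adamts2, which removes the N-terminal one, by 1.43 ± 0.21. Plod2, a lysyl hydroxylase that prepares collagen for cross-linking, was at -0.25 and did not pass. Of 25 proteases and inhibitors, 14 were called higher and 1 lower, against 10.2% and 6.95% of all genes. Higher were Ctsk (log2 2.04), a collagen-cutting cathepsin, Mmp3 (1.94), stromelysin, Htra3 (1.90), a serine protease, and Mmp2 (1.49 ± 0.23), a gelatinase that ran from 2.88 through 15.8 to 35.6 CPM in stroma-poor and from 43.6 through 58.1 to 83.0 in stroma-rich tumors. The lower gene was Mmp12, the elastase of macrophages, at -0.99, and without vehicle replicate 5 the counts were 11 and 0.

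Of 26 proteoglycans and matrix glycoproteins, 19 were called higher and 0 lower (median 1.02), and all 26 differences were above 0. Efemp1, a fibulin, differed by 2.31, Podn, a small leucine-rich proteoglycan like decorin, by 1.68, Eln, elastin, by 1.56, and Fbn1, fibrillin of the elastic microfibrils, by 1.36. Bgn, biglycan, ran from 30 through 152 to 199 CPM in stroma-poor and from 227 through 296 to 385 in stroma-rich tumors. Sparc, a collagen-binding glycoprotein, differed by 0.81 ± 0.15, and Postn, periostin, by 1.28 ± 0.20. Basement membrane genes were mixed, with 7 of 18 called higher (median 0.43): Lama2, the laminin chain of muscle, nerve and fibroblasts, differed by 2.11 and Nid1, nidogen, by 1.38, while Nid2 stood at -0.38 and did not pass.

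Genes that mark fibroblasts themselves had the same direction, and as genes of the cells the groups were selected on they only describe the groups. Of 20 fibroblast identity genes, 18 were called higher and 0 lower (median 1.29), and 20 of 20 were above 0. Their summed level ran from 201 through 410 to 500.3 CPM in stroma-poor and from 741 through 971 to 1167 in stroma-rich tumors, with no overlap. Dpt, dermatopontin of universal fibroblasts, ran from 5.34 through 14.3 to 35.5 CPM in stroma-poor and from 51.2 through 81.5 to 132 in stroma-rich tumors, a log2 difference of 2.33 ± 0.20. Clec3b (2.18), Mfap5 (1.90) and Gsn (1.63) followed. Pdgfra, the receptor for platelet-derived growth factor on fibroblasts, differed by 1.31 ± 0.20, and Fap, the protease that marks activated fibroblasts, by 1.02 ± 0.21. Of 23 mesenchymal transcription factors, 16 were called higher, among them Ebf1 (1.68), Zeb2 (1.45), Osr2 (1.35) and Prrx1 (1.20).

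Some markers of contractile cells passed. Of 14 myofibroblast and smooth muscle genes, 3 were called higher (median 0.68), against 10.2% of all genes, and 13 were above 0. The 3 were Myh11 (1.22), Synpo2 (1.11) and Tpm2 (0.84). Acta2, the smooth muscle actin of myofibroblasts, vessels and myoepithelium, ran from 46.4 through 152 to 499 CPM in stroma-poor and from 198 through 299 to 517 in stroma-rich tumors. The ranges overlapped, and its difference of 0.80 ± 0.31 did not pass (limma adjusted p = 0.0753). Myh11 passed at 0.0454 and lost the call in 13 of 30 fits that left out 1 tumor.

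Secreted factors of fibroblasts split between members that followed the matrix and members that did not. Of 26 tested, 14 were called higher and 0 lower (median 0.63), against 10.2% and 6.95% of all genes. Igf1, insulin-like growth factor 1, ran from 13.6 through 28.5 to 59.1 CPM in stroma-poor and from 84.7 through 104 to 160 in stroma-rich tumors, a log2 difference of 1.83 ± 0.19, with all 15 stroma-rich tumors above all stroma-poor ones. Igfbp6, which binds insulin-like growth factors, differed by 2.15, Sfrp4, a secreted Wnt antagonist, by 2.05, and the Wnt ligand Wnt2 by 1.65. Cxcl1, a neutrophil chemokine, was at -0.72 and did not pass.

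The TGF-beta pathway is the best known inducer of collagen genes. Its ligands are held in the matrix by latent binding proteins, bind a pair of receptors and signal through SMAD proteins. Of 21 members, 7 were called higher, against 10.2% of all genes, and 0 lower (median 0.33). Among the ligands, Tgfb1 ran from 2.33 through 4.61 to 9.19 CPM in stroma-poor and from 2.76 through 5.71 to 8.83 in stroma-rich tumors, and its difference of 0.26 ± 0.18 did not pass (limma adjusted p = 0.35); Tgfb3 was at 0.21 ± 0.13 (adjusted p = 0.291) and Tgfb2 at -0.30. The receptors passed: Tgfbr2 differed by 0.72 ± 0.13 (adjusted p = 0.000139), Tgfbr1 by 0.56, and the co-receptors Tgfbr3 and Eng by 0.72 and 0.68. The latent binding protein Ltbp4 differed by 0.89 and Nrros, which holds latent TGF-beta on myeloid cells, by 0.69. Smad2, Smad3, Smad6 and Smad7 did not pass, with values of -0.04, 0.33, 0.01 and -0.06. Of 17 PDGF and FGF pathway genes, 5 were called higher, among them the receptors Pdgfra and Pdgfrb (0.84) and the ligands Fgf2 (0.85) and Fgf10 (1.11).

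The 29 tumors of neither group, which the comparison of 15 with 15 did not use, were fitted apart, by the slope of each gene in log2 per unit of score. As the score comes from the same 4 genes, a slope again states that a gene goes with their level. In these 29 tumors 171 of 14483 genes passed (1.18%), 128 with a positive (0.884%) and 43 with a negative slope (0.297%). Of the 1474 genes higher in stroma-rich tumors, 90.7% had a positive slope in the 29 tumors, against 48.5% of all genes, and 93 passed in both. Of the 1007 lower genes, 88.5% had a negative slope, against 51.5% of all genes, and 14 passed in both. The 93 genes were 6.31% of the 1474 and 72.7% of the 128; the 14 were 1.39% of the 1007 and 32.6% of the 43. Leaving out 1 of the 29 tumors moved the counts between 52 (without propylparaben replicate 15) and 268 (without methylparaben replicate 4) for positive and between 9 (without vehicle replicate 2) and 101 (without methylparaben replicate 4) for negative slopes.

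The lowest adjusted p-values among the genes named belonged to Bgn and Postn. Bgn had a slope of 1.02 ± 0.15 and Postn of 0.85 ± 0.12 (SE, n = 29, limma adjusted p = 0.00027 for both). Igf1 (1.09 ± 0.19, adjusted p = 0.00298), Mmp2 (1.59 ± 0.27, 0.00298), Itgbl1 (1.19 ± 0.20, 0.00298), an integrin-beta-like secreted protein, Col6a1 (1.23 ± 0.23, 0.00611), Sparc (0.75 ± 0.14, 0.00658) and Col1a2 (0.84 ± 0.17, 0.0127) passed as well, and these 8 genes kept the call in all 29 fits that left out 1 tumor. Of the other collagens 8 of 14 passed, of the fibroblast identity genes 6 of 20, of the proteoglycans 6 of 26 and of the proteases 4 of 25, all with positive slopes. These lists, and the matrix genes named above, belong to the same cells and matrix as the genes of the score and only describe it. Fap (slope 0.18 ± 0.33) and Tgfb1 (0.34 ± 0.30) did not pass. The largest positive slopes among genes that passed were those of Mmrn1 (2.07), a lymphatic marker, Crabp1 (1.92), a retinoic acid binding protein, Kcna6 (1.91), a potassium channel, Fbln7 (1.86), a fibulin, and Col17a1 (1.83), the hemidesmosome collagen of basal epithelium. Of these 5, Kcna6 and Col17a1 did not pass between the 15 and 15 (0.33 and 0.27), and Crabp1 lost the call for its slope in 11 of 29 fits that left out 1 tumor and Col17a1 in 1. The most negative were Snhg6 (-2.17), a small nucleolar RNA host gene, Map3k15 (-1.46), 1810026B05Rik (-1.37), Rpl17-ps8 (-1.25), a pseudogene whose reads cannot be told from its parent gene, and Lsm5 (-1.20), an RNA-binding protein. None of these 5 passed between the 15 and 15, and leaving out 1 tumor ended the call at least 1 time for each.

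**Figure D2:**
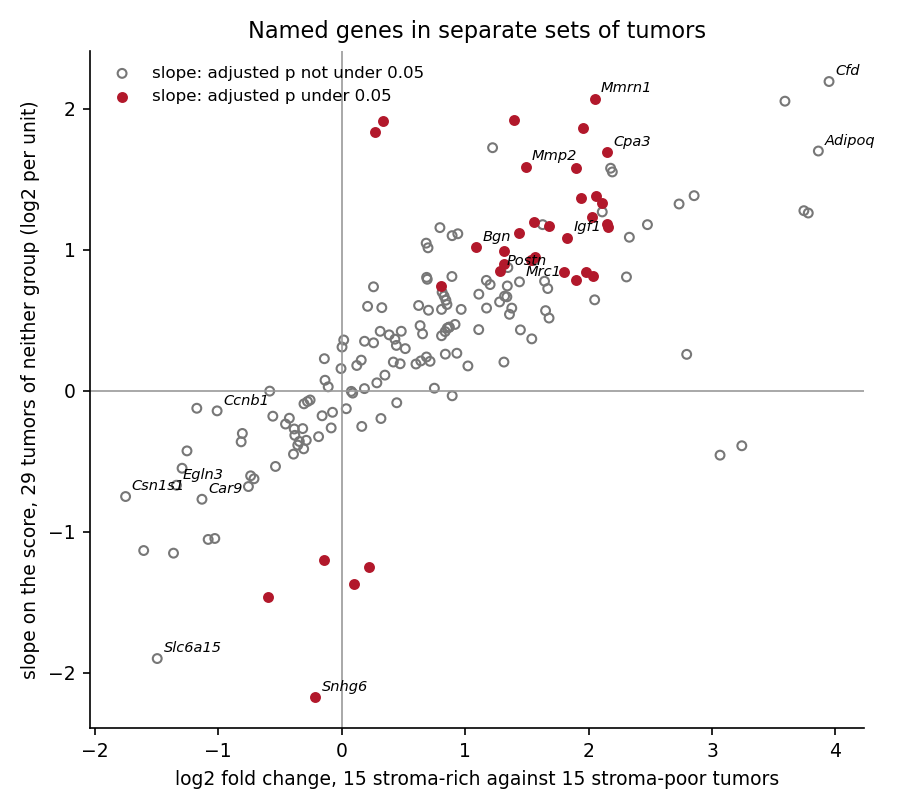
Log2 fold change between 15 stroma-rich and 15 stroma-poor tumors (horizontal axis) against the slope on the score in the 29 other tumors (vertical axis, log2 per unit of score), 1 point per named gene without the 4 that chose the groups; filled points passed for the slope. Bgn, Mmp2 and Igf1 are filled and lie above 0 on both axes, and Adipoq, Ccnb1 and Egln3 are open.

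Fat cell genes had the highest median difference of the lists described here. All 13 adipocyte genes tested were called higher (median log2 difference 2.69), against 10.2% of all genes. Cfd, the complement protease adipsin that fat cells secrete, ran from 2.05 through 11 to 114 CPM in stroma-poor and from 71.6 through 229 to 959 in stroma-rich tumors, a log2 difference of 3.95 ± 0.50 (limma adjusted p = 8.17e-07). Adipoq, the fat hormone adiponectin, ran from 0.48 through 4.37 to 52.9 and from 38.1 through 103 to 377 CPM (3.86 ± 0.47, adjusted p = 4.42e-07), with 12 of 15 stroma-rich tumors above all stroma-poor ones. Car3 (3.78), the carbonic anhydrase of fat and muscle, and Plin1 (3.59), the coat protein of lipid droplets, followed, and Pparg, the fat cell transcription factor, differed by 1.19. The summed level of the list ran from 64.1 through 131 to 515 CPM in stroma-poor and from 413 through 1193 to 4104 in stroma-rich tumors. It was higher in stroma-rich tumors within methylparaben (3.16 in mean log2) and within propylparaben (2.49), and the single stroma-rich vehicle tumor lay 1.47 above the 8 stroma-poor ones. All 13 also passed without the 7 libraries, without vehicle replicate 5 and with paraben tumors alone. In the 29 other tumors all 13 slopes were positive (median 1.38) but 0 passed, and the highest summed level of all 59 tumors, 15796 CPM, was in one of these 29.

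The level of fat cell genes moved with the score, so the lists are given with it as a covariate. In that fit 49 of all 14483 genes were called higher and 22 lower. Called higher were then 5 of 14 collagens (median 1.29), 5 of 20 fibroblast identity genes (median 0.85), 3 of 26 proteoglycans (median 0.94), 2 of 21 collagen processing genes (median 0.70), 1 of 25 proteases and inhibitors (median 0.81) and 0 of 23 mesenchymal transcription factors (median 0.67). Their medians stayed above 0 while most calls were lost. Among lists of other cells and processes described below, 3 of 13 complement, 1 of 15 macrophage, 1 of 6 mast cell, 1 of 18 integrin and 0 of 17 endothelial genes were then called higher by limma. Called lower were 0 of 20 mitosis (median -0.50), 0 of 20 replication (median -0.34) and 0 of 16 hypoxia and glycolysis genes (median -0.31). The part of fat in the differences was not tested.

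**Figure D3:**
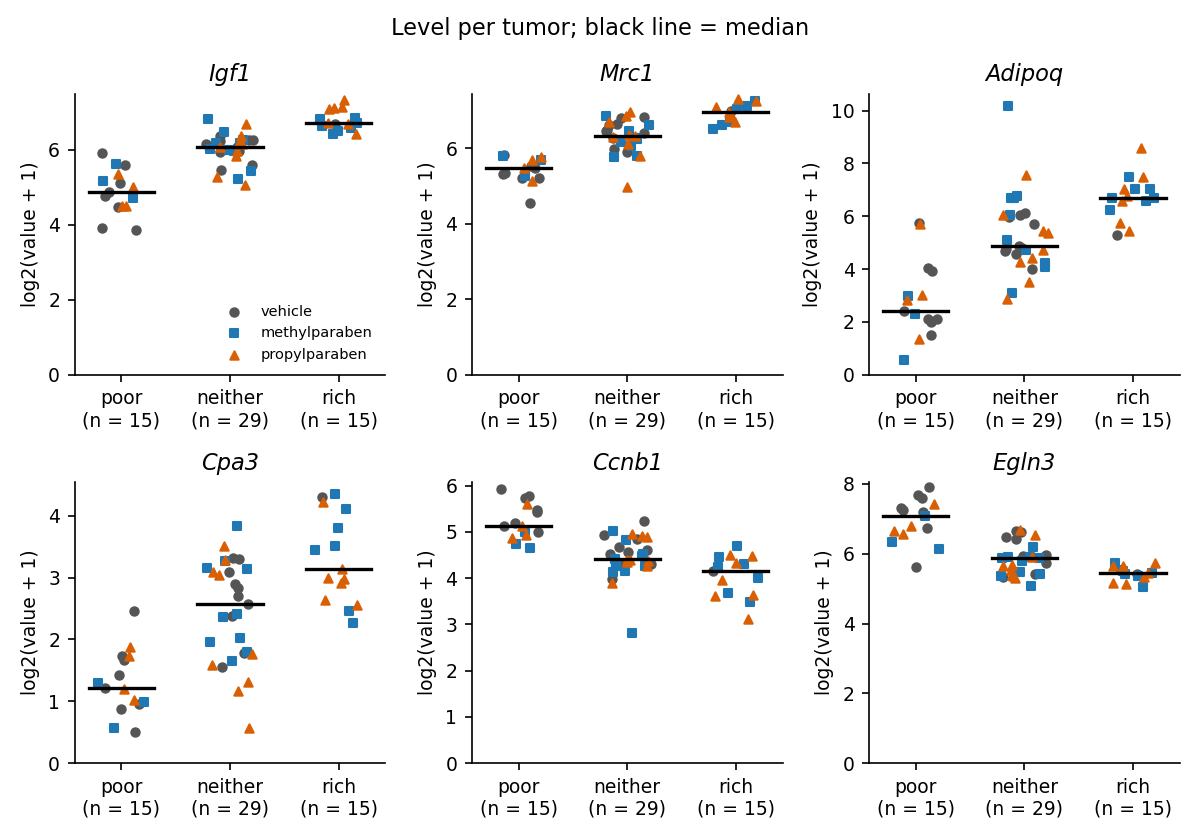
Level of 6 genes as log2(value + 1) in each tumor (vertical axis) by group (horizontal axis: 15 stroma-poor, 29 of neither group, 15 stroma-rich), with symbols for treatment and a line at the median. Igf1 and Mrc1 do not overlap between stroma-poor and stroma-rich, Adipoq spreads most widely in the tumors of neither group, and Ccnb1 and Egln3 run the other way.

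Macrophage and mast cell genes were higher in stroma-rich tumors. Of 15 macrophage genes, 10 were called higher and 0 lower (median 0.61), against 10.2% of all genes. Mrc1, the mannose receptor of tissue-resident macrophages, ran from 22.6 through 43.7 to 55.7 CPM in stroma-poor and from 90.9 through 125 to 159 in stroma-rich tumors, with no overlap and a log2 difference of 1.44 ± 0.12 (limma adjusted p = 5.36e-10). Itgam (1.17), the integrin CD11b, and Adgre1 (0.97), which encodes F4/80, followed. Cd68, a lysosomal protein of all macrophages, was at 0.35 ± 0.15 (adjusted p = 0.0958), and Trem2, a lipid receptor, at -0.42; neither passed. Of 6 mast cell genes, 5 were called higher (median 1.69). Cpa3, the mast cell carboxypeptidase, ran from 0.41 through 1.31 to 4.50 CPM in stroma-poor and from 3.81 through 7.85 to 19.4 in stroma-rich tumors (2.15 ± 0.26, adjusted p = 3.72e-07), and had a slope of 1.69 ± 0.42 in the 29 tumors (adjusted p = 0.0346), a call lost in 10 of 29 fits that left out 1 tumor. The tryptase Tpsb2 (2.19) and the chymases Cma1 (2.11) and Mcpt4 (1.28) passed between the groups. The summed mast cell level ran from 4.93 to 18.0 CPM in stroma-poor and from 18.1 to 72.1 in stroma-rich tumors.

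Few lymphocyte and neutrophil genes were tested at these depths. Of 7 T cell genes, 2 were called higher, Nkg7 (0.83) and Cd2 (0.84), against 10.2% of all genes. Both had medians under 3 CPM in each group, and neither passed without vehicle replicate 5. Cd8a, the co-receptor of cytotoxic T cells, was at 0.44 ± 0.25 (limma adjusted p = 0.234). Of 5 B and plasma cell genes 0 passed. Of 4 neutrophil genes 1, S100a8, was lower (-1.17 ± 0.36, limma adjusted p = 0.0217), against 6.95% of all genes. Its call was lost without vehicle replicate 5. Of 13 complement genes, which fibroblasts and macrophages both make, 9 were called higher (median 1.08). C1ra, a protease that starts the classical pathway, ran from 15.8 through 21 to 31.4 CPM in stroma-poor and from 42.7 through 56.1 to 78.5 in stroma-rich tumors (1.32 ± 0.12, adjusted p = 3.85e-09) and passed in the 29 tumors too (slope 0.99 ± 0.19, adjusted p = 0.0104). Serping1, the inhibitor of that protease, differed by 1.56 and C3, the central component, by 1.34.

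Some genes of blood and lymph vessels were higher in stroma-rich tumors. Of 17 endothelial genes, 7 were called higher and 0 lower (median 0.40), against 10.2% and 6.95% of all genes. Pecam1, the junction protein CD31, ran from 14.1 through 17.8 to 24.3 CPM in stroma-poor and from 16.2 through 26.5 to 35.1 in stroma-rich tumors, with overlap (0.52 ± 0.12, limma adjusted p = 0.0025). Kdr, the receptor for vascular endothelial growth factor, differed by 0.38 and Tie1, a vessel kinase, by 0.81. Of 6 lymphatic genes, 4 were called higher (median 0.87), among them Lyve1 (1.56 ± 0.24) and Mmrn1 (2.05 ± 0.37). Of 9 pericyte genes, 4 passed, with Rgs5 at 0.32 and Pdgfrb at 0.84, and 2 passed without vehicle replicate 5. Of 18 integrins and collagen receptors, 11 were called higher, among them Itgbl1 (2.15), the scavenger receptor Cd36 (2.48), which fat cells, macrophages and capillaries share, and Ddr2 (1.54), a receptor tyrosine kinase for collagen. Without vehicle replicate 5 that count was 4, in paraben tumors alone 5 and without the 7 libraries 7.

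Some pieces held skeletal muscle, a tissue that lies next to the mammary fat pad. The 12 muscle genes had a median log2 difference of 2.05 and 0 passed by limma, though 3 did without vehicle replicate 5. Their summed level ran from 2.30 through 7.87 to 500.4 CPM in stroma-poor and from 1.99 through 548 to 1540 in stroma-rich tumors. Both ends of the range occur in stroma-rich tumors, and 8 of 15 lay above all stroma-poor tumors. Titin, Ttn, which was not in that list, passed (2.79 ± 0.96, limma adjusted p = 0.0401) and lost the call in 14 of 30 fits that left out 1 tumor; a gene on the other strand, Gm13938, overlaps it. Of 7 skin keratinocyte genes 0 passed by limma.

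Few genes of the luminal and basal epithelium lists passed. Of 18 luminal epithelium genes, 2 were called higher and 0 lower (median 0.03), against 10.2% and 6.95% of all genes. Epcam, the epithelial adhesion molecule, ran from 235 through 392 to 526 CPM in stroma-poor and from 347 through 452 to 582 in stroma-rich tumors (0.09 ± 0.11, limma adjusted p = 0.616), and Krt8, a luminal keratin, was at 0.18 ± 0.10 (adjusted p = 0.228). The 2 that passed were Kit (0.42), a receptor of luminal progenitors, and Krt18 (0.28), the partner of Krt8, and neither passed without vehicle replicate 5. Of 10 hormone-sensing genes, 2 were called higher: Esr1, the estrogen receptor, ran from 1.23 through 7.46 to 26.6 and from 12.8 through 20.7 to 37.3 CPM (0.86 ± 0.27, adjusted p = 0.0239), and Gata3, a luminal transcription factor, differed by 0.48 ± 0.14 (adjusted p = 0.0133). Neither passed without vehicle replicate 5, and Esr1 was at -0.12 with the adipocyte score as a covariate. All 10 hormone-sensing differences were above 0 (median 0.49). The summed level of that list had a median of 544 CPM in stroma-poor and 998 in stroma-rich tumors. In mean log2 it was higher in stroma-rich tumors by 0.05 within methylparaben and by 0.48 within propylparaben. The single stroma-rich vehicle tumor lay 1.58 above the 8 stroma-poor ones. Pgr, the progesterone receptor, was at 0.75 ± 0.44 (adjusted p = 0.258). Krt5, a basal keratin, was at 0.70 ± 0.40 (adjusted p = 0.242), and of 10 basal genes only Itga6 passed, lower by 0.31 ± 0.08.

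Milk protein genes passed in both directions. Of 11, 2 were higher, against 10.2% of all genes: Btn1a1 (0.89) and Xdh (0.64), which coat the milk fat globule. Another 2 were lower, against 6.95% of all genes: Csn1s1 and Csn1s2b, which encode caseins. Csn1s1 had the most negative difference of all named genes: it ran from 18.7 through 64.8 to 403 CPM in stroma-poor and from 4.7 through 22.0 to 171 in stroma-rich tumors, with wide overlap (-1.75 ± 0.52, limma adjusted p = 0.0176), and lost the call in 3 of 30 fits that left out 1 tumor. Without vehicle replicate 5 the counts of the list were 1 higher and 0 lower, and Xdh had a limma adjusted p of 0.15. Csn2, another casein, was at -0.74 ± 0.60 (adjusted p = 0.428).

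Cell division genes were lower in stroma-rich tumors. Of 20 mitosis genes, 18 were called lower in stroma-rich tumors and 0 higher (median -0.71), against 6.95% of all genes, and 20 of 20 were below 0. Ccnb1, the cyclin that drives entry into mitosis, ran from 24.1 through 33.9 to 59.6 CPM in stroma-poor and from 7.61 through 16.7 to 25.1 in stroma-rich tumors (-1.01 ± 0.16, limma adjusted p = 4.71e-05), with 14 of 15 stroma-rich tumors below all stroma-poor ones. Aurka (-0.81 ± 0.15), a spindle kinase, Ccnb2 (-0.80 ± 0.16), the second mitotic cyclin, and Cdk1 (-0.71 ± 0.13), the kinase they activate, followed. Mki67, the proliferation marker, was at -0.36 ± 0.14 and did not pass (adjusted p = 0.0865). Of 20 DNA replication genes, 15 were called lower (median -0.47), among them Gins1 (-0.76) and Mcm5 (-0.58) of the replicative helicase and Rrm1 (-0.46), a subunit of ribonucleotide reductase.

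The 7 libraries come from the end of the first principal component with the higher mitosis level, so their level follows partly from that choice. The summed level of the mitosis genes was 1217 to 2120 CPM in those 7 and 789 to 1227 in the other 8 stroma-poor tumors. It was 414 to 1471 in the 29 other tumors and 546 to 1011 in stroma-rich tumors. Without the 7 libraries 15 of 20 mitosis genes were lower (median -0.52) and 7 of 20 replication genes; without vehicle replicate 5, 15 and 5. The mean log2 level of the mitosis list was lower in stroma-rich tumors by 0.42 within methylparaben and by 0.71 within propylparaben. In the 29 other tumors all 20 mitosis slopes were below 0 (median -0.37), but 0 passed.

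The 4 mitosis genes named by p-value all have negative differences, and promoters of 2 of them are shown because the list moved together. Both are the 250 bases before the RefSeq start on GRCm38.p6, minus strand, Ccnb2 at chr9:70421555-70421804 and Aurka at chr2:172370571-172370820. Capitals mark CCAAT, the CCAAT box, where it reads on the printed strand.
Ccnb2: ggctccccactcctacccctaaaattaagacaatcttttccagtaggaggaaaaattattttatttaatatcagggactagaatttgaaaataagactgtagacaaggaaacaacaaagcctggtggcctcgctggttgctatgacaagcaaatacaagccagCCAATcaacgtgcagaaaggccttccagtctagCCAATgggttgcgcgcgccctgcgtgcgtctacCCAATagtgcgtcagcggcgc
Aurka: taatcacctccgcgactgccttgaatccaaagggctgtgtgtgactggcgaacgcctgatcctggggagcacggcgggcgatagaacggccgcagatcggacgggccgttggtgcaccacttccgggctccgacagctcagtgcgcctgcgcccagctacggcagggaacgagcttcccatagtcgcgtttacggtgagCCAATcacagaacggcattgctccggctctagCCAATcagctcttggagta
CCAAT was searched on both strands. It occurs 3 times in Ccnb2, from 87 to 21 bases before the start, and 2 times in Aurka, at 51 and 19 bases. Of the 20 mitosis genes, 16 have a promoter in the table, and 16 of these 16 hold CCAAT, against 33.8% of all 32851 windows. TTTGAA, the core of the cell cycle homology region, occurs in 7 of 16, against 16% of all. These are matches of letters and say nothing of what binds there; Ccna2, Aurkb, Kif20a and Tpx2 have no entry.

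Some genes induced by low oxygen were lower in stroma-rich tumors. Of 16 hypoxia and glycolysis genes, 5 were called lower, against 6.95% of all genes, and 0 higher (median -0.41). Egln3, an oxygen-sensing prolyl hydroxylase, ran from 47.9 through 133 to 240 CPM in stroma-poor and from 32.2 through 42.5 to 52.1 in stroma-rich tumors (-1.34 ± 0.18, limma adjusted p = 2.09e-06), with 11 of 15 stroma-rich tumors below all stroma-poor ones. Car9 (-1.13 ± 0.23), the carbonic anhydrase of hypoxic cells, Adm (-1.05), adrenomedullin, Vegfa (-1.03 ± 0.23), the vessel growth factor, and Pdk1 (-0.56 ± 0.13), which keeps pyruvate out of mitochondria, were lower too. Of the 16 differences, 11 were below 0 and 5 above. Among those above were the glycolytic genes Hk2, Aldoa, Pfkp and Ldha, which did not pass, at 0.20, 0.15, 0.07 and 0.05. The summed level of the list had a median of 1694 CPM in the 7 libraries at the end of the first principal component, 1154 in the other 8 stroma-poor and 1162 in stroma-rich tumors. Without the 7 libraries 4 of 16 passed and without vehicle replicate 5 also 4. In the 29 other tumors Egln3 had a slope of -0.67 ± 0.25 (limma adjusted p = 0.174). Eno1, the glycolytic enolase, was the only one of the 16 to pass there, with a negative slope.

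The promoter of Egln3 is shown as the one with the largest difference among these genes, 250 bases before the RefSeq start on GRCm38.p6, minus strand, at chr12:54203875-54204124. Capitals mark ACGTG, the core of the hypoxia response element.
Egln3: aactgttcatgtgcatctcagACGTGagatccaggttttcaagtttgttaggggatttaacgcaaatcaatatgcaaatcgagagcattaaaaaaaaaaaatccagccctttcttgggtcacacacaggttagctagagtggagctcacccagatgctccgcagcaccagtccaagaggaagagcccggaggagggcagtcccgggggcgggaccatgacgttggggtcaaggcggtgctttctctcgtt
ACGTG occurs 1 time here on either strand, 229 bases before the start. Of 15 genes of the list with a promoter in the table, 10 hold it in at least 1 of their 22 windows, 11 of these 22 windows do, and 16.6% of all windows do. Ndrg1 has no entry.

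**Figure D4:**
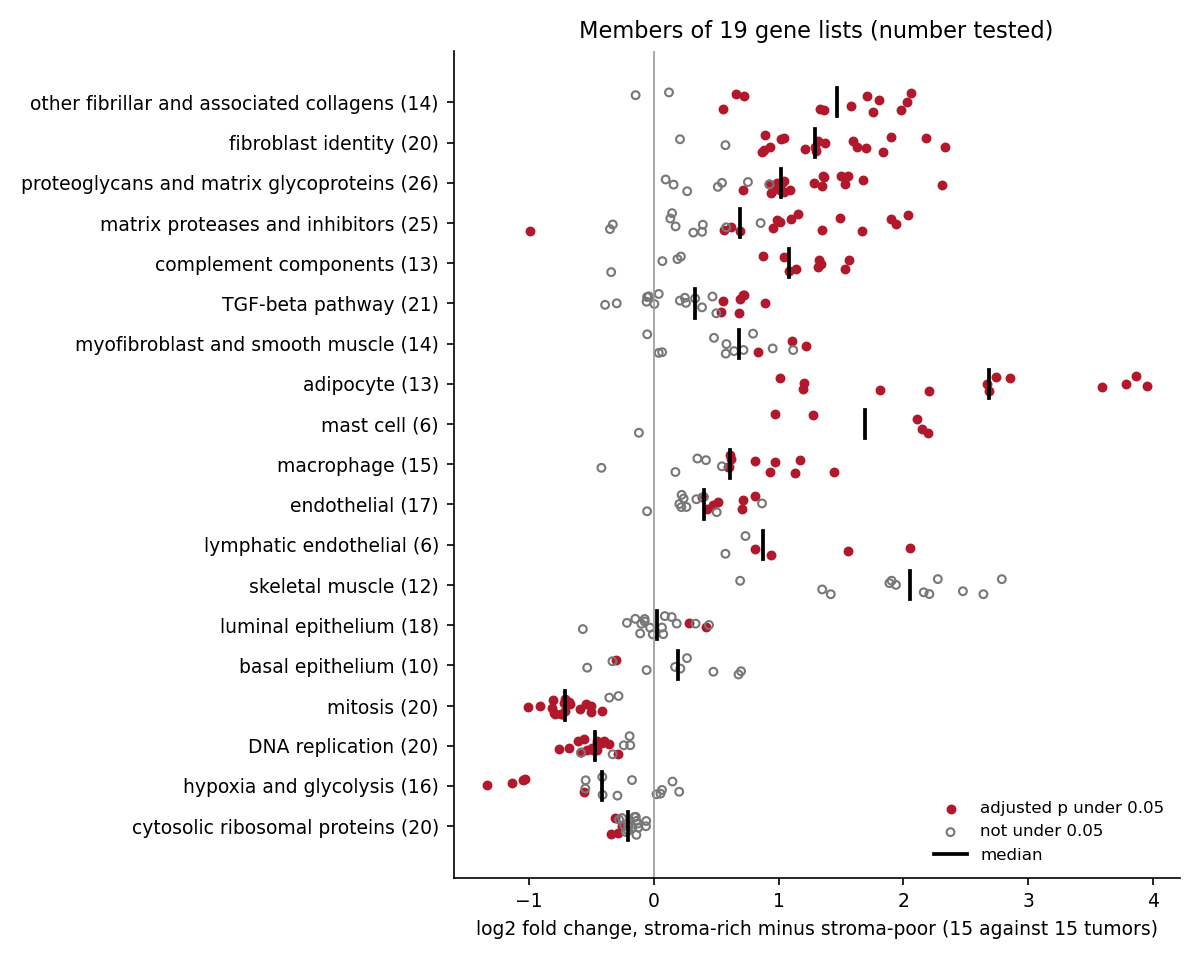
Log2 fold change between stroma-rich and stroma-poor tumors (horizontal axis) of each tested member of 19 gene lists (vertical axis, number of members in brackets), filled where the adjusted p was under 0.05, with a bar at the median. Adipocyte genes lie farthest to the right (median 2.69), muscle genes are spread and open, and mitosis genes lie together below 0 (median -0.71).

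Ribosomal and respiratory genes differed by little. Of 20 cytosolic ribosomal protein genes, 4 were called lower (median -0.20), against 6.95% of all genes, with Rps18 at -0.34 and Rpl8 at -0.26. Of 20 nuclear respiratory chain genes 3 were lower (median -0.14), with Cox7a2 at -0.38 ± 0.08. Without vehicle replicate 5 the counts were 0 and 1, and with quantile normalization 10 and 4. Ribosomal protein genes have many near-identical pseudogenes, so reads between copies are uncertain. Whether counting used strand is not given in the sources used here, and 59 of the 178 named genes overlap a gene on the other strand (Igf1, Eng, Fgf2, Rps18, Car9 and Dpt among them), so their reads cannot be told from those of that gene.

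Beyond the lists, the largest positive differences among genes with a mean of at least 10 CPM were fat cell genes and their neighbours: Cfd, Adipoq, Car3, Plin1, Cidec (2.86), which enlarges lipid droplets, and Pck1 (3.74 ± 0.52, limma adjusted p = 3.79e-06), which fat cells use to make glycerol. Pck1 was at -0.18 with the adipocyte score as a covariate. The others were Ttn, Wfdc21 (2.73) and the secretoglobins Scgb1b27 (3.24 ± 0.71, adjusted p = 0.00166) and Scgb2b26 (3.07 ± 0.56, adjusted p = 0.000219), members of a gene cluster on chromosome 7 with near-identical copies, whose reads are uncertain and whose slopes in the 29 tumors were -0.39 and -0.46. The largest negative differences were Csn1s1, Cxcl5 (-1.60 ± 0.55, adjusted p = 0.041), a neutrophil chemokine, Slc6a15 (-1.49), an amino acid transporter, Spag5 (-1.36 ± 0.25, adjusted p = 0.000219), a spindle protein, Egln3, Wif1 (-1.29), a Wnt inhibitor, Dmrta2 (-1.25), a transcription factor, S100a8, Car9 and Cldn8 (-1.08), a tight junction claudin. Dmrta2 ran from 23.6 through 49.4 to 95.7 CPM in stroma-poor and from 7.76 through 18.7 to 32.0 in stroma-rich tumors, with 13 of 15 stroma-rich tumors below all stroma-poor ones. Cxcl5 lost its call in 12 of 30 fits that left out 1 tumor, and S100a8 in 2.

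Intronic reads were compared in the same 30 tumors. How introns were defined is not given, so these reads may partly be the same as the reads on genes. Of 14278 introns tested 1022 passed (7.16%), 742 higher (5.2%) and 280 lower (1.96%). Intron levels of Col3a1, Dcn and Lum differed by 2.27, 1.74 and 1.42, given without a test, beside gene-level differences of 1.99, 1.59 and 2.21. Among genes the ranking did not use, Mrc1 differed by 1.55 in introns (limma adjusted p = 2.56e-07), Col6a3 by 1.97 (2.4e-08), Car3 by 3.60 (3.17e-06) and Egln3 by -1.50 (7.44e-05). Each lay near its gene-level value. Introns of 9 of 19 mitosis genes were lower, those of Lox (0.17) did not pass, and those of Cfd (0.86, adjusted p = 0.128) did not.

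The series compares paraben-exposed with vehicle tumors, so the score was also set against treatment. Without the score, methylparaben tumors differed from vehicle tumors in 191 genes (1.32%), propylparaben tumors differed from them in 4 (0.0276%), and methylparaben and propylparaben tumors differed in 0 by limma. With the score as a covariate 0 passed in each of the 3 comparisons by limma, where 476 and 483, 399 and 515, and 140 and 245 genes were higher and lower at an unadjusted p under 0.05. By edgeR on recovered reads 9 passed for methylparaben, 0 for propylparaben and 23, all lower with propylparaben, between the esters. A call that is lost with the covariate is not shown to come from stroma: the score and the treatment overlap in these tumors, and the cause was not tested. Irs1, an adaptor of the insulin receptor, had the lowest limma adjusted p for methylparaben with the score as a covariate, 0.226, and 0.364 for propylparaben.

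Whether genes go with the score in the same way in each treatment was tested by an interaction over all 59 tumors. Between methylparaben and vehicle 0 slopes differed by limma (lowest adjusted p = 0.107, with 635 higher and 739 lower at an unadjusted p under 0.05), against 4 higher and 3 lower by edgeR. Between propylparaben and vehicle 9 of 14483 differed (0.0621%), 1 with a higher (0.0069%) and 8 with a lower slope (0.0552%) in propylparaben. Adrb1, the beta-1 adrenergic receptor, had a slope of 0.54 ± 0.11 in vehicle (SE, n = 19) and -0.33 ± 0.09 in propylparaben (n = 20), a difference of -0.86 ± 0.16 (limma adjusted p = 0.0107). In stroma-poor tumors it ran from 18.1 through 28.3 to 40.2 CPM in the 8 vehicle tumors and from 66.3 through 75.4 to 131 in the 4 propylparaben tumors, with no overlap. As Adrb1 was picked by its slopes in these same tumors, that gap describes the slopes and adds no support. Ace, angiotensin-converting enzyme of endothelium and macrophages, had a slope of 0.86 ± 0.13 in vehicle and 0.13 ± 0.09 in propylparaben (difference -0.72 ± 0.16, adjusted p = 0.0485), and Spns2, a sphingosine-1-phosphate exporter, 0.38 ± 0.05 and -0.09 ± 0.07 (adjusted p = 0.0302). Without propylparaben replicate 12, a stroma-poor tumor with the highest Adrb1 value, 0 of the 9 passed (limma adjusted p = 0.275 for Adrb1 with a difference of -0.76), and without the 7 libraries 0 passed as well, with differences of -0.78 for Adrb1 and -0.99 for Ace. Adrb1 kept the call in 38 of 39 fits that left out 1 vehicle or propylparaben tumor, and the others lost it in 5 to 26.

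**Figure D5:**
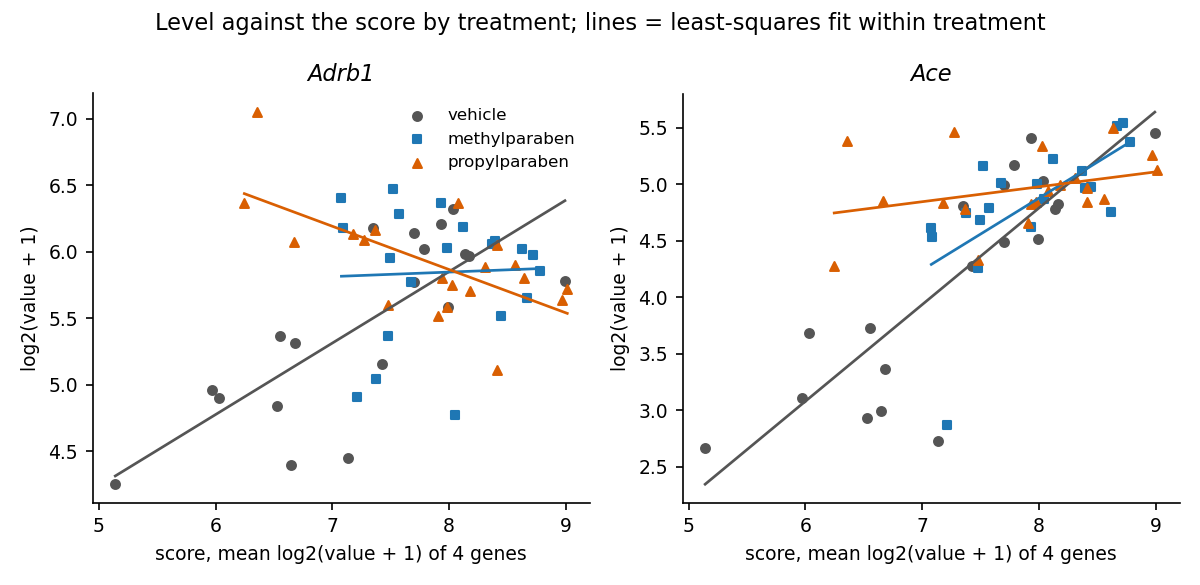
Level of Adrb1 and Ace as log2(value + 1) (vertical axis) against the score (horizontal axis) in each of the 59 tumors, with symbols and a least-squares line for each treatment. The vehicle and propylparaben lines for Adrb1 have opposite signs (0.54 and -0.33 per unit of score), and 1 propylparaben tumor at a score of 6.36 lies above all others.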

How the data were processed

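RNA-seq of 59 tumors was analysed from 2 deposited tables, gene values (55421 rows) and intron values (33282 rows). Per the submitters' processing notes the authors used bcl2fastq 2.20.0.422, STAR 2.6.1d, HTSeq 0.10.0 and GRCm38; which annotation and strand setting were used, and how introns were defined, is not given in the sources used here. Deposited signal values are whole reads times 1 factor per library, which equals CPM divided by the TMM factor (relative gap at most 1.1e-15); 100% of values were whole reads within a tolerance of 1e-06, so depth could be recovered. Reads assigned to no gene stayed out of the tests.

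Groups came from the labels, and replicate numbers are accession order. The members and all gene lists were chosen with earlier results of these data known. Main fits used limma 3.58.1 in R 4.3.3 (trend) on log2(value + 1), treatment as covariate, over 14487 genes with a mean of at least 1, with Benjamini-Hochberg adjustment over all genes tested and a threshold of 0.05; fold changes are on that scale, which understates low genes. Library measures were compared by 2-sided permutation tests of 100000 resamples. On recovered reads edgeR 4.0.16 gave 1424 higher and 1098 lower genes, and DESeq2 1.42.0 was a further alternative. Tested on simulated data with 14487 genes, the comparison of 15 with 15 recovered 68% of genes changed 1.5-fold, 92% at 2-fold, 96% at 4-fold and 100% at 8-fold. The slope in the 29 tumors recovered 26% of genes changed 1.5-fold per unit of score, 72% at 2-fold, 88% at 4-fold and 98% at 8-fold. Changes were placed only in genes with more reads, so these rates do not cover low genes.

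Named were the 4 ranking genes, the 10 genes per direction with the largest called difference and a mean of at least 10, up to 4 called members per list with the smallest p, a fixed list of 24, and up to 5 genes per direction (3 where fewer than 3 passed) for slopes, interactions and treatments; other genes were singled out after their values were seen. No libraries looked like duplicates: over 9868 genes, chi-square divided by its degrees of freedom was at least 1.92 for any pair of one treatment. Gene names came from GENCODE M21 and promoters from RefSeq on GRCm38.p6. Some genes are not reported here.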

Additional observations from a re-analysis of the deposited data

Results flagged for a closer look

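For 9 genes the slope on the score (log2 per unit) differed between propylparaben and vehicle tumors by an interaction term over 59 tumors (limma, adjusted p under 0.05), the test that put them here. The differences, propylparaben minus vehicle, were -0.86 for Adrb1 (adjusted p = 0.0107), -0.47 for Spns2 (0.0302) and, each at an adjusted p of 0.0485, -0.89 for Adgrg2, -0.72 for Ace, -0.51 for Slco2a1, -0.49 for D3Ertd751e, -0.42 for Etnk1, -0.36 for Ppp3ca and 0.28 for Vangl1. Slopes in vehicle and propylparaben were 0.80 and -0.08 for Adgrg2, an orphan receptor, 0.39 and -0.12 for Slco2a1, the prostaglandin transporter, 0.42 and 0.06 for Ppp3ca, the catalytic subunit of calcineurin, and -0.08 and 0.20 for Vangl1, a planar polarity protein. Without propylparaben replicate 12 none of the 9 passed (limma adjusted p from 0.275 to 0.358), and without the 7 libraries at the end of the first principal component none did (0.334 to 0.489), with differences of -0.78 for Adrb1, -0.90 for Adgrg2 and -0.99 for Ace. The cause was not tested. Groups of 15, 15 and 29 tumors are too large for the check on single outlying samples, which was not applied.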

How the results depend on the processing

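No paired analysis was possible because tumors carry no number in the labels that ties them across groups. Against 1474 higher and 1007 lower genes, counts were 926 higher with a mean of at least 10, 196 and 162 with a mean of at least 100 (fewer genes tested), 2775 and 2401 with no covariate, 2659 and 2331 with the score as a continuous term, 1726 lower with 20 against 20 tumors, 655 lower without the 7 libraries, 455 lower in paraben tumors alone, 376 and 77 with the mitosis score and 49 and 22 with the adipocyte score as covariate. Leaving out 1 tumor gave 943 to 1572 higher and 382 to 1223 lower genes, both lowest without vehicle replicate 5. Introns with no covariate gave 1449 and 857. In the 29 tumors edgeR gave 28 negative slopes, and leaving out 1 tumor 52 to 268 positive and 9 to 101 negative. Slopes differing between methylparaben and vehicle were 4 higher and 3 lower by edgeR; between propylparaben and vehicle 3 and 14 with pseudocount 0.5, 0 and 2 with pseudocount 10, 3 and 15 with a mean of at least 10, 2 and 23 by edgeR, 0 and 0 without the 7 libraries, and 0 to 9 higher and 0 to 36 lower when leaving out 1 tumor. Treatment counts with no score were 99 higher and 92 lower for methylparaben and 4 higher for propylparaben, and edgeR with the score gave 9 higher for methylparaben and 23 lower between the esters. Pck1 (-0.18) and Esr1 (-0.12) changed sign with the adipocyte score and Slco2a1 (0.15) with the continuous score; the cause was not tested. Of 135 named genes with a call, 27 lost it when some tumor was left out, 26 of them without vehicle replicate 5, and 0 changed sign. Leaving out tumors of the middle set, of the interaction, and the 7 libraries for the interaction, and using paraben tumors alone, were chosen after seeing the data. Depth limits genes of few CPM, such as lymphocyte markers.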
